A study of Mus musculus with 6 samples.

Results

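The SOCS family (suppressors of cytokine signalling) comprises 8 genes, Cish and Socs1 to Socs7, and all 8 were found by symbol among the 55401 Ensembl gene identifiers of the deposited table. Their RNA was measured in the mouse microglial line BV2, which is immortalised, in 3 libraries of cells treated with lipopolysaccharide (LPS, the endotoxin of Gram-negative bacteria, which cells sense through Tlr4) and 3 libraries of cells that received vehicle. The study looked for regulators of microglial activation and inflammation. The labels state neither the dose nor the duration of LPS, nor whether the 3 libraries of a group were separate cultures, so p-values measure the spread between these libraries, which may be technical.

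SOCS proteins close a negative feedback loop. Cytokine receptors activate JAK kinases, these phosphorylate STAT transcription factors, and STATs switch on several SOCS genes. Each SOCS protein carries an SH2 domain, which binds phosphotyrosine on receptors or kinases, and a C-terminal SOCS box, which recruits elongins and the cullin Cul5 to mark the bound protein for degradation. CIS (the product of Cish) and SOCS1 to SOCS3 are the cytokine-inducible branch, best known in macrophages and microglia for restraining interferon and interleukin signals. SOCS4 to SOCS7 have longer N-termini and are linked mainly to growth factor and insulin receptors.

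Libraries totalled between 45969690 and 59023474 estimated counts. Small values came in steps of 3.81 to 3.93 counts, depending on the library, so an estimated count is not a read. All 10 microglia and macrophage markers examined had a mean above 1 CPM (counts scaled to library size). Their summed level was 1840 to 2320 CPM in LPS libraries and 2180 to 2470 CPM in Vehicle libraries. Means of single markers ran from 1.03 CPM (Cx3cr1) to 918 CPM (Cd68) in LPS libraries. In Vehicle libraries they ran from 2.33 CPM (Cx3cr1) to 959 CPM (Cd68). Of these markers 1 (10%), Adgre1, was called higher and 2 (20%), Csf1r and Tyrobp, lower, against 12.7% and 10.9% of all tested genes. Among markers of other cells, those above 1 CPM were 0 of 6 for astrocytes, 3 of 5 for neurons, 2 of 5 for the oligodendrocyte lineage, 1 of 4 for endothelial cells, 0 of 5 for fibroblasts and pericytes and 0 of 5 for T cells. The neuronal list summed to 1.74 to 10.6 CPM in LPS libraries and 4.60 to 9.82 CPM in Vehicle libraries, and Cd3e, Cd8a and Trac were at 0 throughout. No marker of these other cell types was called.

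The family split along its branches. All 4 genes of the cytokine-inducible branch rose with LPS, with log2 fold changes from 1.59 to 4.49, and none of Socs4 to Socs7 was called, with log2 fold changes between -0.23 and 0.28. All 8 genes passed the filter on low counts, and 4 of 8 were called by edgeR's quasi-likelihood test at an adjusted p under 0.05 over the whole table, where 23.6% of all 16371 tested genes were called. The 4 calls were all rises, against 12.7% of tested genes called higher. Of all tested genes, 2082 were higher and 1782 lower, and the split was 1650 and 2258 when libraries were scaled by total counts only, under which the calls of the 8 members did not change. Of the members 2, Cish and Socs3, were called and at least 4-fold higher, as were 1.66% of tested genes. No member was called lower by edgeR, DESeq2 or limma voom, and none was lower at an unadjusted p under 0.05. In 7 of 8 members the CPM of the LPS and Vehicle libraries did not overlap, which held for 40.8% of tested genes. The median log2 fold change was 0.94 over the 8 members and -0.02 over all tested genes. Because RNA was measured from whole cultures, a higher level in each cell and more cells expressing a gene cannot be told apart.

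**Figure D1:**
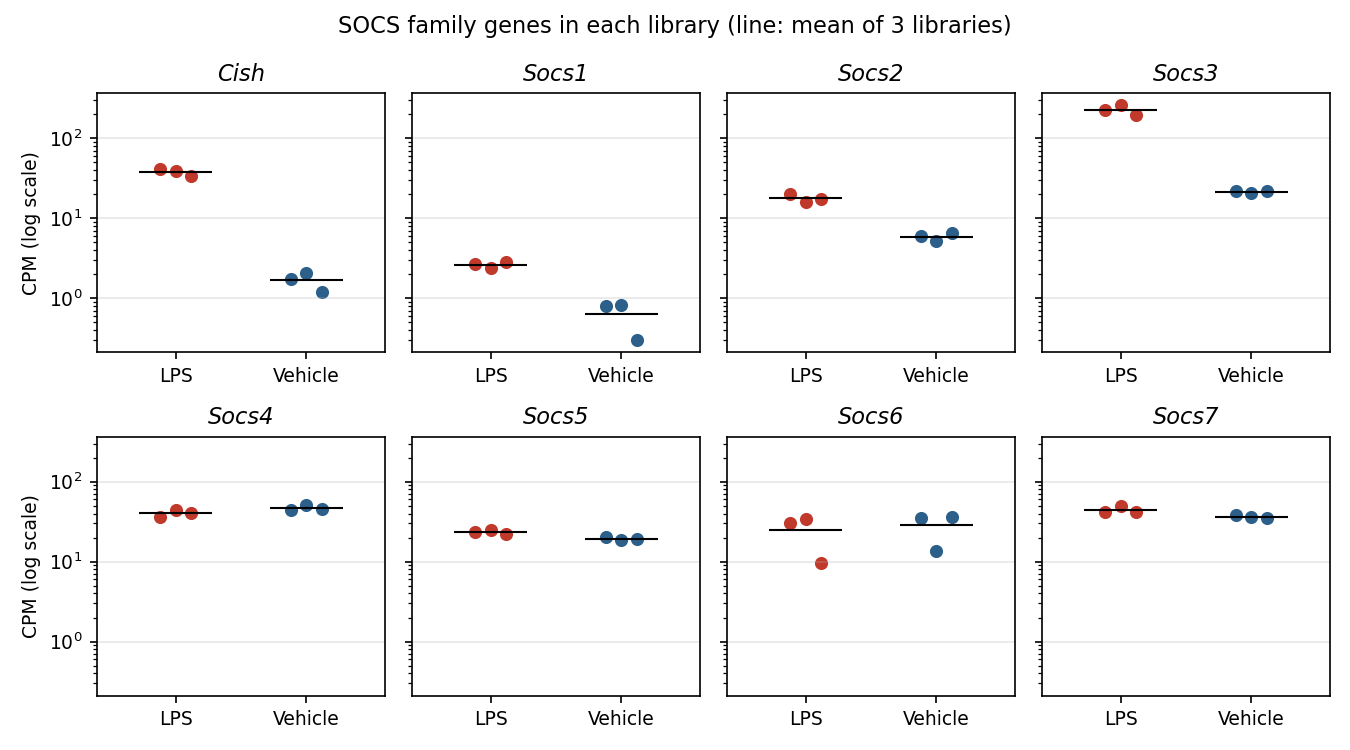
CPM (log axis) of the 8 SOCS family genes in the 3 LPS libraries (red, left) and the 3 Vehicle libraries (blue, right), with the mean as a line. Cish, Socs1, Socs2 and Socs3 lie higher in every LPS library than in any Vehicle library, whereas Socs6 has 1 low library in each group.

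Socs3, whose product inhibits JAK kinases bound to receptors that use the gp130 chain Il6st, had 227, 258 and 195 CPM in LPS 1, 2 and 3, against 21.8, 20.5 and 22.1 CPM in Vehicle 1, 2 and 3. The lowest LPS library therefore lay far above the highest Vehicle library, and the coefficient of variation was 13.9% among LPS and 4.05% among Vehicle libraries. The fitted change was 10.6-fold (95% confidence interval 8.64 to 12.9), a log2 fold change of 3.40 ± 0.13 (SE, n = 3 per group, edgeR adjusted p = 1.88e-06). Among all tested genes, 99.3% had a smaller log2 fold change.

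Cish had the largest change in the family. CIS occupies docking sites for STAT5 on cytokine receptors. The gene had 40.6, 38.7 and 34.0 CPM in LPS 1, 2 and 3, against 1.75, 2.07 and 1.20 CPM in Vehicle 1, 2 and 3. Every LPS library was far above every Vehicle library, where 106, 101 and 57 estimated counts lay behind the values. The change was 22.4-fold (95% confidence interval 16.4 to 30.6), a log2 fold change of 4.49 ± 0.20 (SE, n = 3 per group, edgeR adjusted p = 4.45e-06), larger than that of 99.6% of tested genes. In the annotation Cish overlaps the pseudogene Gm17040 and the antisense gene Gm17041 on the opposite strand. The library kit is not stated to keep strand, and these neighbours were listed with 14 and 0 counts summed over the 6 libraries.

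Socs1, which encodes a JAK inhibitor that limits interferon signalling, had the lowest level per length of the 8 members in both groups. Its values were 2.66, 2.35 and 2.81 CPM in LPS 1, 2 and 3, against 0.794, 0.821 and 0.296 CPM in Vehicle 1, 2 and 3. Vehicle 3 was low even among its group, with 14 estimated counts against 48 and 40 in Vehicle 1 and 2, and 133, 124 and 137 in the LPS libraries. The groups did not overlap. The change was 3.99-fold with a wide 95% confidence interval of 2.22 to 7.18, a log2 fold change of 2.0 ± 0.37 (SE, n = 3 per group, edgeR adjusted p = 0.00592).

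Socs2, whose product binds the growth hormone receptor, had 19.9, 16.0 and 17.2 CPM in LPS 1, 2 and 3, against 5.94, 5.19 and 6.46 CPM in Vehicle 1, 2 and 3. Every LPS library was above every Vehicle library, and the spread within groups was similar, with coefficients of variation of 11.2% in LPS and 10.9% in Vehicle libraries. It rose 3.01-fold (95% confidence interval 2.32 to 3.92), a log2 fold change of 1.59 ± 0.17 (SE, n = 3 per group, edgeR adjusted p = 0.00037).

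**Figure D2:**
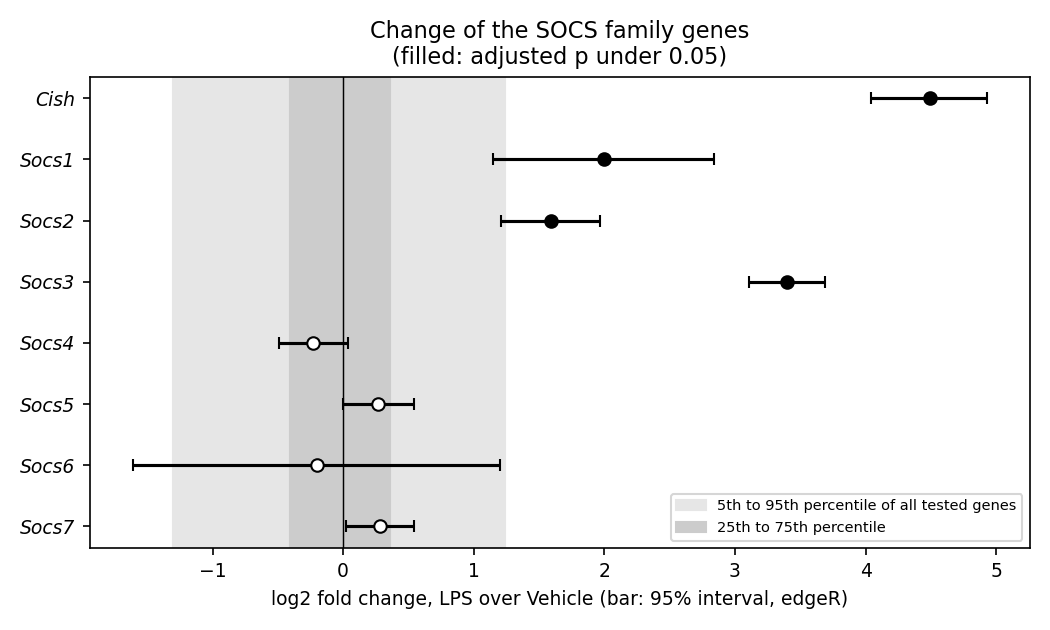
Log2 fold change (LPS over Vehicle, horizontal axis) of each SOCS family gene with its 95% confidence interval from edgeR. Filled points are called, and the shaded bands show where 50% and 90% of all tested genes lie, the wider one from -1.30 to 1.24.

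The other branch gave small differences. Socs4, linked to the EGF receptor, had 36.1, 43.8 and 40.2 CPM in LPS 1, 2 and 3, against 44.2, 51.1 and 45.4 CPM in Vehicle 1, 2 and 3. The groups were separated by a narrow margin, 43.8 CPM in the highest LPS library and 44.2 CPM in the lowest Vehicle library. The log2 fold change was -0.23 ± 0.12 (SE, n = 3 per group, edgeR adjusted p = 0.20), with a 95% confidence interval from -0.49 to 0.04.

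Socs5, which is also linked to the EGF receptor, and Socs7, an SH2 adaptor of the insulin pathway, lay slightly higher in the LPS libraries. Socs5 had 23.4, 24.7 and 22.4 CPM in LPS 1, 2 and 3, against 20.6, 18.5 and 19.3 CPM in Vehicle 1, 2 and 3. Socs7 had 42.1, 49.7 and 41.3 CPM in LPS 1, 2 and 3, against 38.5, 36.1 and 35.0 CPM in Vehicle 1, 2 and 3. Neither gene's groups overlapped, yet neither passed the correction over all genes. The log2 fold changes were 0.27 ± 0.12 for Socs5 and 0.28 ± 0.11 for Socs7 (SE, n = 3 per group), with edgeR adjusted p of 0.139 and 0.117 and unadjusted p of 0.0494 and 0.0389. Their 95% confidence intervals ended at 0.54 for both, so a rise beyond 1.46-fold for Socs5 or 1.45-fold for Socs7 lay outside them.

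Socs6, which is linked to receptor tyrosine kinases such as Kit and the insulin receptor, was the only member whose groups overlapped. It had 30.7, 33.8 and 9.62 CPM in LPS 1, 2 and 3, against 35.4, 13.7 and 36.2 CPM in Vehicle 1, 2 and 3. LPS 3 and Vehicle 2 were each below 15 CPM while the other 4 libraries exceeded 30 CPM, and the coefficient of variation was 53.2% in LPS and 44.9% in Vehicle libraries. The log2 fold change of -0.20 ± 0.56 (SE, n = 3 per group, edgeR adjusted p = 0.835) came with a 95% confidence interval from -1.61 to 1.20, and it was 0.17 without LPS 3. This interval runs from a fold of 0.328 to one of 2.30, so a smaller change of Socs6 was not detectable with these libraries.

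Levels of different genes were compared per length, in TPM computed from estimated counts and the longest annotated transcript. Among LPS libraries Socs3 was highest, with a mean of 185 ± 15.6 TPM (SD, n = 3), followed by Cish with 16.8 ± 0.803 TPM. Socs7 (13.2 TPM), Socs4 (12.2 TPM) and Socs5 (10.6 TPM) followed, then Socs2 (8.74 TPM), Socs6 (8.39 TPM) and Socs1 (1.89 TPM). The library ranges of Socs7 and Socs4, of Socs4 and Socs5, and of Socs2 and Socs6 overlapped, so these neighbours did not differ beyond their spread.

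Among Vehicle libraries Socs3 was again first, with 19.8 ± 0.663 TPM (SD, n = 3), but close to Socs4 with 16.1 ± 1.41 TPM. Socs7 (12.3 TPM), Socs6 (11.1 TPM) and Socs5 (9.86 TPM) came next, then Socs2 (3.26 TPM), Cish (0.842 TPM) and Socs1 (0.516 TPM). Here the ranges of Socs7 and Socs6, of Socs6 and Socs5, and of Cish and Socs1 overlapped. By these lengths Cish was second of 8 in the LPS libraries and seventh of 8 in the Vehicle libraries. With median transcript lengths it had position 4 of 8 in LPS libraries (13.4 TPM), behind Socs3 (449 TPM), Socs2 (19.5 TPM) and Socs6 (13.7 TPM), and position 7 of 8 in Vehicle libraries (0.643 TPM). Socs3 was first in both groups by either length.

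The composition of the family changed with these levels. Its summed level was 256, 276 and 239 TPM in LPS 1, 2 and 3, against 76.7, 68.4 and 75.9 TPM in Vehicle 1, 2 and 3, a ratio of means of 3.49. Socs3 made up 71.4%, 73.1% and 71.5% of that sum in LPS 1, 2 and 3, against 26%, 27.8% and 26.8% in Vehicle 1, 2 and 3. Cish made up 6.57% ± 0.526 in LPS and 1.16% ± 0.37 in Vehicle libraries (SD, n = 3 each), a difference of 5.41 percentage points. Socs4 to Socs7 together held 17.3% ± 0.332 in LPS and 66.8% ± 1.26 in Vehicle libraries (SD, n = 3 each). The sizes of these shares depend on the length used. With median transcript lengths Socs3 held 84.7% in LPS and 44% in Vehicle libraries, and Cish held 2.54% in LPS and 0.625% in Vehicle libraries, a difference of 1.92 percentage points. Socs4 to Socs7 together then held 8.85% in LPS and 48.4% in Vehicle libraries, and the ratio of summed levels was 5.06. Shares of a sum move together, so smaller shares of Socs4 to Socs7 are not falls in their own level. In a two-sided exact permutation test over the libraries, the sum and the share of each member except Socs1 gave p = 0.1, the smallest that 3 against 3 libraries allow. Adjusted over the 8 shares, this exact permutation p was 0.114. The share of Socs1 differed by 0.0321 percentage points (exact permutation p = 0.9), and its sign was reversed without LPS 3 (-0.0499), without Vehicle 3 (-0.165) or with median transcript lengths (-0.0582).

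**Figure D3:**
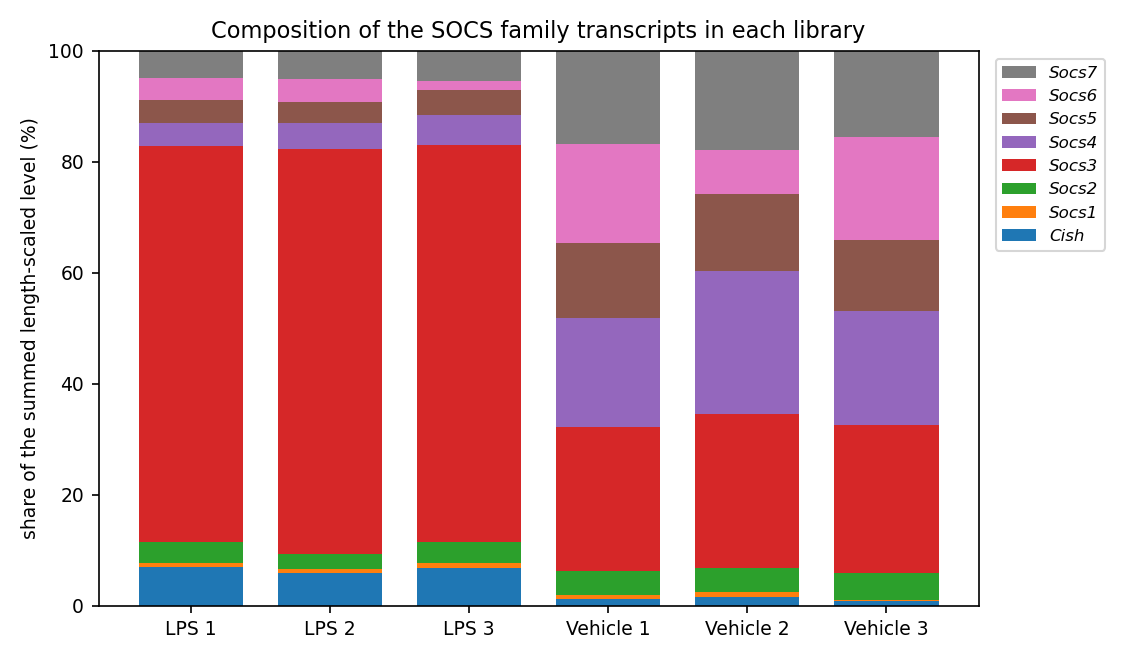
Share of each SOCS family gene in the family's summed TPM (vertical axis, percent) in each library, LPS libraries left and Vehicle libraries right. Socs3 fills 71.4% to 73.1% of each LPS bar and 26% to 27.8% of each Vehicle bar.

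Promoter sequences from RefSeq (build GRCm38.p6, 250 bases before and 50 after the start) were on hand for 4 of 8 members, Cish, Socs1, Socs3 and Socs4. They were searched on both strands for a STAT motif, TTCNNNGAA, an interferon response motif (GAAA, any 2 bases, GAAA) and an NF-kB motif (GGG, any 2 bases, TTTCC). The rising genes Socs3, Cish and Socs1 each held a STAT or interferon response match, and Socs4 held none of the 3 motifs. None of the 4 held the NF-kB motif, and Socs2, which also rose, had no sequence to search. The sequences of Socs3, Socs1 and Cish are shown 5′ to 3′ because they carry the matches, which are in capitals. Socs3 is chr11:117969367-117969616 on the minus strand and Socs1 is chr16:10785537-10785786 on the minus strand, each the 250 bases before the start, and Cish is the 30 bases chr9:107296656-107296685 on the plus strand.
Socs3: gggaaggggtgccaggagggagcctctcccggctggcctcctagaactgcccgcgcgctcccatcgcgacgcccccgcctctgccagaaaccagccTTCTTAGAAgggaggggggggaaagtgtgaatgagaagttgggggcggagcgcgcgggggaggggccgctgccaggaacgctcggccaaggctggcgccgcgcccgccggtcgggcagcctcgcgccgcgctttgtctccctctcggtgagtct
Socs1: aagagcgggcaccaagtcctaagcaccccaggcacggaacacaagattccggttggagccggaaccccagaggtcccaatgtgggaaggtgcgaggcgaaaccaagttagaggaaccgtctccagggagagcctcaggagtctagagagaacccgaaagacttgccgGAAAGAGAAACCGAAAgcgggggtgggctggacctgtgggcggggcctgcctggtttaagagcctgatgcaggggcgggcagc
Cish: gttTTCCTGGAAagTTCTTGGAAatctgtc

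Socs3 held 1 STAT match, TTCTTAGAA, at positions -154 to -146 relative to the start, and 77 of its 250 bases lie in an exon of another annotated Socs3 transcript. Cish held 2, TTCCTGGAA at positions 1 to 9 and TTCTTGGAA at positions 12 to 20 after the start. All 30 bases lie in exons of annotated Cish transcripts, which may include the transcript that begins at this start. Socs1 held 2 overlapping interferon response matches, GAAAGAGAAA and GAAACCGAAA, together spanning positions -83 to -68. Of 32851 promoter windows of this length, 8.30% held the STAT motif, 3.44% the interferon response motif and 1.63% the NF-kB motif. A match is a string of letters and not a shown binding site, and the motifs were chosen with the expression results known.

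The profiles closest to the members were found over the 6 libraries, as the root mean square difference in log2 CPM after subtracting each gene's Vehicle mean, among 12690 tested genes. For Socs3 the nearest were Tnf (0.13), Acod1 (0.14), which makes itaconate, and Il1rn (0.15), an antagonist of the IL-1 receptor. Their log2 fold changes were 3.40, 3.32 and 3.28. Closeness to the change of Socs3 follows from how these genes were picked. For Cish the nearest were Spata31d1b (0.27), Traf1 (0.29), an adaptor of TNF receptors, and Susd2 (0.32). Spata31d1b and Susd2 were listed at 0 in every Vehicle library and reached at most 1.10 and 0.739 CPM in an LPS library, so their likeness to Cish rests on the prior count. For Socs1 the nearest were Chac1 (0.31), Col4a2 (0.32) and Siglece (0.33), with log2 fold changes of 2.01, 2.18 and 2.43.

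**Figure D4:**
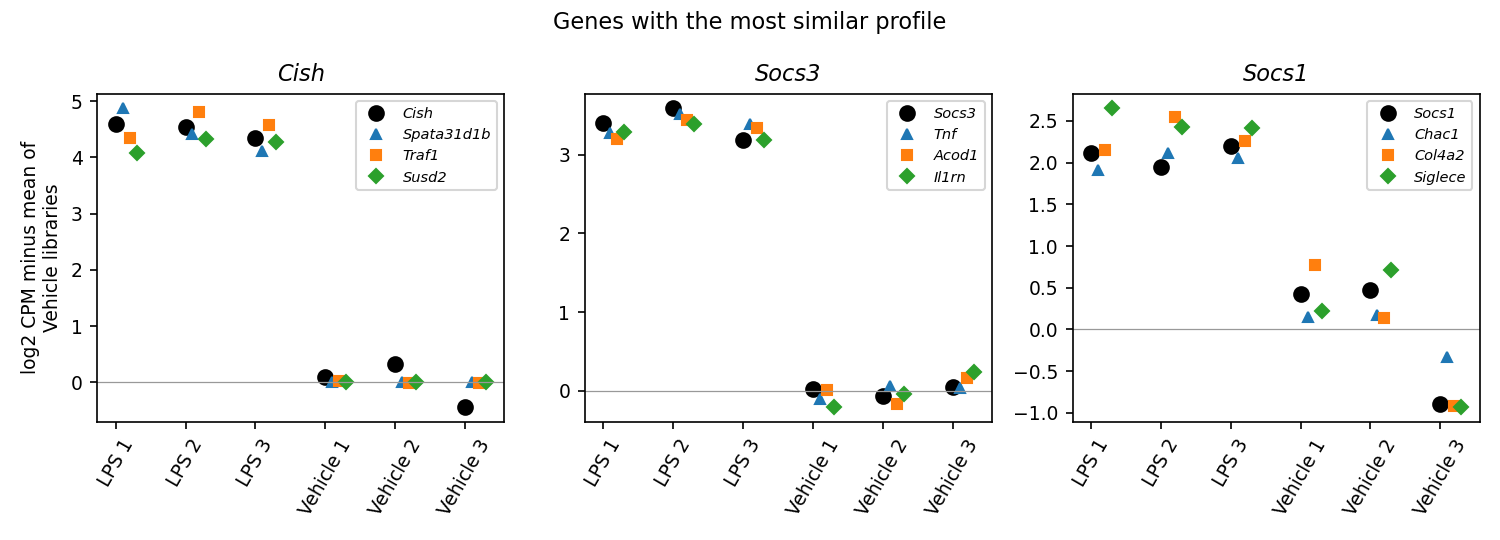
Log2 CPM minus the gene's Vehicle mean (vertical axis) in each library for Cish, Socs3 and Socs1 (black) and the 3 genes nearest to each. The genes beside Socs3 track it within 0.13 to 0.15 log2 units (root mean square), those beside Cish and Socs1 within 0.27 to 0.33.

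Genes upstream of the SOCS loop were examined as lists. Of 27 listed cytokines that signal through JAK kinases 14 passed the filter on low counts. Of these, 8 rose (57.1%, against 12.7% of all tested genes). None was lower by edgeR, DESeq2, limma voom or an unadjusted p under 0.05. Il12b and Csf2 were called but passed the filter only through their LPS libraries, so their rises were not independent of the filter. Csf2 had 8.84 ± 1.86 CPM in LPS and 0.0643 ± 0.0634 CPM in Vehicle libraries. The list's median log2 fold change was 2.35, also with Il12b at its bound. Csf3, a granulocyte growth factor, had 938 ± 297 CPM in LPS and 1.97 ± 0.959 CPM in Vehicle libraries (log2 fold change 8.95 ± 0.43, edgeR adjusted p = 5.75e-05). Il6, which signals through gp130, had 160, 232 and 184 CPM in LPS 1, 2 and 3, against 1.09, 0.554 and 0.570 CPM in Vehicle 1, 2 and 3 (log2 fold change 7.97 ± 0.25, edgeR adjusted p = 8.45e-07). Il12b, a subunit shared by IL-12 and IL-23, had 5.51 ± 2.16 CPM in LPS libraries and 0 in every Vehicle library, at least 24.4-fold higher against a floor of 3 spacings per library (0.226 CPM). Ifng, Ifna1 and Ifna4 were at 0 in all 6 libraries, and Ifnb1 had 0.567 ± 0.265 CPM in LPS and 0.159 ± 0.0828 CPM in Vehicle libraries (edgeR adjusted p = 0.0786). Csf2 and the interferon genes were named after their values were seen.

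Of 22 tested receptor chains that use JAK kinases, 5 rose and 2 fell, and the list's median was 0.18 on the log2 scale. The rises were 22.7% of the list against 12.7% of all tested genes, and the falls were 9.09% against 10.9%, near the background. Il4ra, a chain of the IL-4 receptor, rose by 1.62 ± 0.11, Il10ra by 1.42 ± 0.28 and Il12rb1 by 1.31 ± 0.22 on the log2 scale. Il6ra, the receptor chain that binds IL-6, fell to 31.8 ± 6.91 CPM in LPS libraries, against 78.3 ± 2.47 CPM in Vehicle libraries (log2 fold change -1.30 ± 0.15, edgeR adjusted p = 0.00061). Il12rb2 also fell, with -1.14 ± 0.22. Il6st, named as the docking chain of SOCS3, had 120 ± 6.30 CPM in LPS and 132 ± 5.68 CPM in Vehicle libraries and was not called (edgeR adjusted p = 0.281).

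Of 10 tested JAK kinases and STAT factors 4 rose, 40% of the list against 12.7% of all tested genes. By edgeR, DESeq2, limma voom or an unadjusted p under 0.05, 0 were lower. Jak2 had 29.5 ± 0.526 CPM in LPS and 14.9 ± 2.10 CPM in Vehicle libraries, a log2 fold change of 0.98 ± 0.14. Tyk2 and Jak3 had log2 fold changes of 0.96 ± 0.12 and 0.68 ± 0.13. Stat3, the fourth of the 4 and the factor activated downstream of gp130, had 121, 133 and 136 CPM in LPS 1, 2 and 3, against 95.8, 90.0 and 88.3 CPM in Vehicle 1, 2 and 3 (log2 fold change 0.51 ± 0.09). The changes of these kinases and factors were all under 2-fold, smaller than the log2 fold changes of the 4 rising SOCS genes.

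Known STAT target genes other than SOCS genes were counted beside them. Of 15 tested STAT3 targets 12 rose (80%) and 1 fell (6.67%), against 12.7% and 10.9% of all tested genes. The median over the list was 1.51 (log2). The kinase gene Pim2 had 105 ± 6.27 CPM in LPS and 6.62 ± 0.555 CPM in Vehicle libraries, and Il1rn and Pim1 rose with log2 fold changes of 3.28 ± 0.13 and 2.39 ± 0.16, while the cyclin gene Ccnd1 fell with -0.61 ± 0.09. Many of these genes are also targets of NF-kB, and which factor acted was not tested. Of 10 tested STAT5 targets, 4 rose (40%) and 2 fell (20%), against 12.7% and 10.9% of all tested genes. The median over these targets was 0.43 (log2). Pim1, Myc (2.13 ± 0.28) and Osm (2.08 ± 0.13) rose most, and Igf1 and Bcl6 fell with log2 fold changes of -1.91 ± 0.14 and -1.56 ± 0.15. The STAT5 rises other than Osm were also counted among the STAT3 targets, and Osm was also counted among the cytokines.

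The SOCS box works through elongins, a cullin and their partners. Of 10 tested genes of this machinery 20% were called, all lower, against 10.9% of all tested genes called lower and 23.6% called in either direction. Here 2 fell (list median -0.06 on the log2 scale) and none rose by edgeR or limma voom, while DESeq2 called 1 higher, as an unadjusted p under 0.05 did for 2. Rnf7, the RING subunit used with Cul5, had 69.9 ± 13.7 CPM in LPS and 108 ± 8.21 CPM in Vehicle libraries, and Eloc (elongin C) had 66.7 ± 5.51 CPM in LPS and 87.8 ± 6.97 CPM in Vehicle libraries, log2 fold changes of -0.62 ± 0.15 and -0.40 ± 0.10. Without Vehicle 1 or Vehicle 2 the number of falls was 0, without LPS 2 or Vehicle 3 it was 1, and without LPS 3 the number of rises was 2. Cul5 had a log2 fold change of -0.10 ± 0.11 and was not called.

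Among 19 tested genes of other SOCS box proteins, 3 rose and 3 fell, 15.8% of the list in each direction, against 12.7% and 10.9% of all tested genes. The median over the list was -0.04 (log2). The falls were Asb10 (-2.74 ± 0.33), Asb4 (-1.81 ± 0.30) and Asb13 (-1.35 ± 0.25), ankyrin repeat proteins with mean levels of at most 7.10 CPM in Vehicle libraries. The rises Asb2, Spsb1 and Asb7 depended on single libraries. Asb2 had 0.76 ± 0.494 CPM in LPS and 0.0548 ± 0.0948 CPM in Vehicle libraries. It passed the filter on low counts only through its LPS libraries, so its rise was not independent of the filter. The number of rises was 0 without Vehicle 1 or Vehicle 3, 1 without LPS 1 or Vehicle 2, and 5 without LPS 3.

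Of 13 tested inhibitors of JAK-STAT signalling outside the SOCS family 3 rose, Cblb (0.62 ± 0.14), Pias4 (0.49 ± 0.12) and Ptpn6 (0.30 ± 0.08), and the list's median was -0.03 (log2). These rises were 23.1% of the list, against 12.7% of all tested genes called higher and 23.6% called in either direction. None fell by edgeR or limma voom, while DESeq2 called 1 lower, as an unadjusted p under 0.05 did for 1. The number of rises was 0 without Vehicle 2 and 1 without LPS 1, Vehicle 1 or Vehicle 3, and 1 member fell without Vehicle 1. Of 13 tested genes of proteins reported as targets of SOCS proteins 3 rose, Jak2 (0.98 ± 0.14), Irs2 (0.58 ± 0.16) and Ptk2 (0.33 ± 0.10). That was 23.1% of the list, against 12.7% of all tested genes called higher and 23.6% called in either direction. Irs2 lost its call in 6 and Ptk2 in 9 of 16 alternatives. The number was 1 without LPS 1 or Vehicle 2, or when scaled by total counts only. The list's median was 0.07 (log2). By edgeR, DESeq2 and limma voom 0 genes of this list were lower, and by an unadjusted p under 0.05 it was 1. Tirap, an adaptor of Tlr4 and a target of SOCS1, had 22.6 ± 2.58 CPM in LPS and 23.4 ± 1.20 CPM in Vehicle libraries and was not called (edgeR adjusted p = 0.804).

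**Figure D5:**
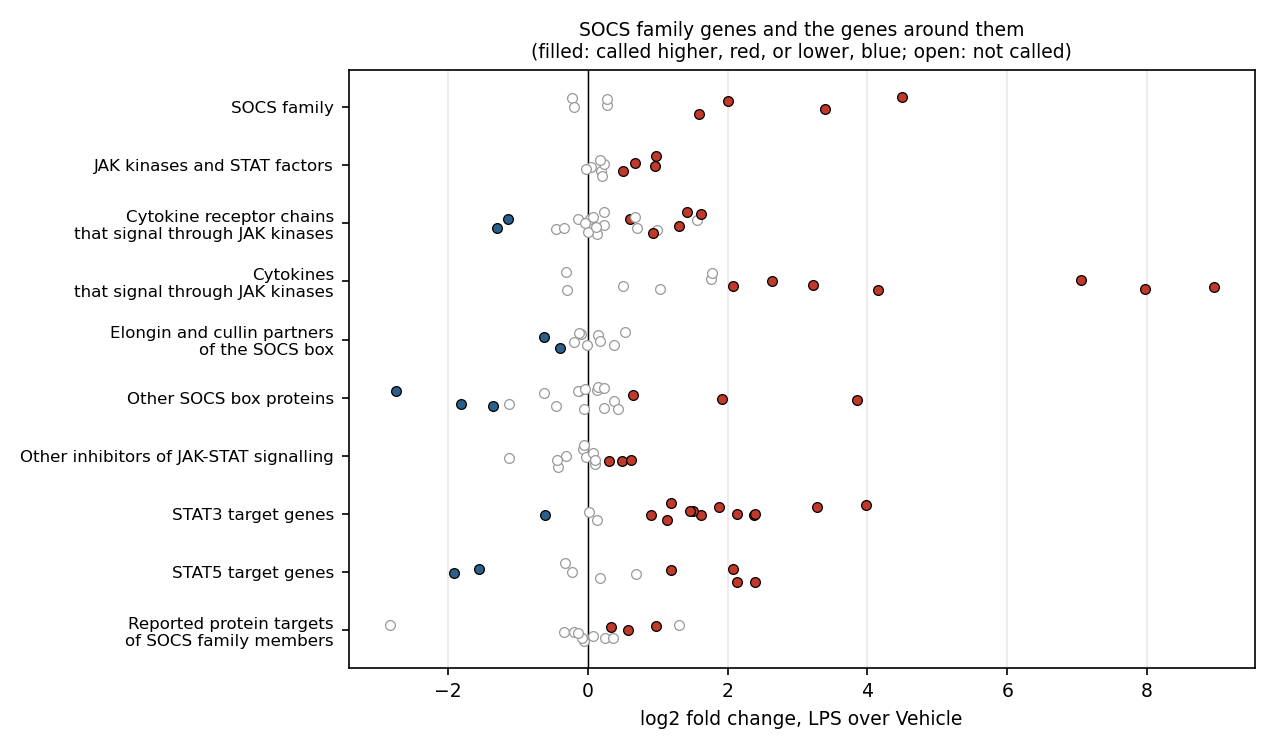
Log2 fold change (LPS over Vehicle, horizontal axis) of the SOCS family genes (top row) and the tested genes of the lists around them, 1 point per gene. Filled points are called higher (red) or lower (blue), open points are not called, and Il12b, at 0 in every Vehicle library, is left out.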

How the data were processed

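Poly(A) RNA was selected and sequenced on an Illumina machine, per the labels' protocols. The submitters' processing notes name Bowtie2 2.2.8, HISAT2, StringTie 1.3.1 and DESeq2 with no role for any of them. Which build and annotation served is not given in the sources used here. The authors deposited estimated counts by gene and library, not normalized as far as the values show, which were all whole numbers, so rounding changed nothing. Each of the 6 value columns carries the name of its sample. Symbols and lengths were taken from GENCODE M21 by identifier, and 55141 of 55401 had one.

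The whole table was tested in R 4.3.3 with edgeR 4.0.16, using filterByExpr (minimum count 10, minimum total 15), TMM scaling and the robust quasi-likelihood F-test, two-sided. P-values were adjusted by Benjamini and Hochberg over all tested genes, with a threshold of 0.05. CPM are TMM-scaled, and a prior count of 2 was added for log2 CPM. The SE is the size of the log2 fold change over the square root of F, and intervals are 95%. The 3 called members with the largest change got their 3 nearest genes, and each list names up to 3 called genes per direction, those with the largest change. Csf2, Cul5, Il6st, Tirap, Stat3, the interferon genes and the cell type markers were named after their values were seen. Members and lists were chosen with earlier results of these data known, and 1 list of target genes is not reported here. The fit was tested on simulated data, where it missed most of the smaller changes and some of its calls were false. Alternatives were DESeq2 1.42.0, limma 3.58.1, other scalings and filters, a block for the replicate number, division by the spacing of the low values, median transcript lengths, and leaving out each library. Intervals cover only the spread between libraries. Figures were drawn with matplotlib 3.10.9.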

Additional observations from a re-analysis of the deposited data

How the results depend on the processing

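The calls of Cish, Socs1, Socs2 and Socs3, and the absence of a call for Socs4 to Socs7, held under all 16 alternatives. Over these the log2 fold change ran from 4.31 to 4.65 for Cish, 1.68 to 2.21 for Socs1, 1.49 to 1.66 for Socs2 and 3.30 to 3.50 for Socs3, and the largest adjusted p was 0.0214, for Socs1. Socs6 was reversed without LPS 3, at 0.17, and ran down to -0.53 over all alternatives. Without 1 library the called genes numbered 2344 to 4535 (1291 to 2450 higher and 1053 to 2085 lower, against 3864, 2082 and 1782 with all libraries).

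Same-numbered libraries showed correlations of their deviations from the group means of 0.0734, 0.0453 and 0.0581. With 3 libraries per group, such values cannot decide whether the numbers mark pairs. The replicate block left 3816 called genes, changed no call of a member, and gave 1 fall (0 without the block) among inhibitors outside the SOCS family. Among named genes it ended the calls of Irs2 (edgeR adjusted p = 0.0535, and 0.00741 to 0.11 over all alternatives) and Ptk2 (edgeR adjusted p = 0.0571, and 0.0203 to 0.135), both reported SOCS targets. DESeq2 also gave 1 fall among inhibitors outside the SOCS family, and 1 rise among elongin and cullin partners. Limma voom gave 1 rise among other SOCS box proteins, and total counts left 1 rise among reported SOCS targets.

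Leaving out 1 library gave 0 to 2 rises and 0 to 2 falls for elongin and cullin partners, and 0 to 5 rises for other SOCS box proteins. It gave 0 to 3 rises and 0 to 1 falls for other inhibitors, and 1 to 2 rises for reported targets. The cause was not tested.

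With median in place of longest transcript lengths, levels in LPS libraries were 449 TPM for Socs3, 19.5 for Socs2, 13.7 for Socs6, 13.4 for Cish, 11.5 for Socs7, 11.3 for Socs5, 10.5 for Socs4 and 0.895 for Socs1. In Vehicle libraries they were 45.9 TPM for Socs3, 17.2 for Socs6, 13.3 for Socs4, 10.2 for Socs7, 10.1 for Socs5, 6.97 for Socs2, 0.643 for Cish and 0.235 for Socs1, so the order below Socs3 depends on the length used. The share of Socs1 was reversed with it, at -0.0582 percentage points, and ran from -0.165 to 0.168 without 1 library. Depth limits Socs1 most, whose Vehicle libraries held 14 to 48 estimated counts.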

Other observations

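The pattern of Socs6, with LPS 3 and Vehicle 2 both at or below 50% of every other library, was shared by 38 of 16371 tested genes. For the other 14 pairs of libraries the number of genes with such a pattern ran from 41 to 256. These counts were made after the values of Socs6 were seen, and what lowers Socs6 in these libraries was not tested. Pseudogenes that overlap Socs6 in the annotation were listed with at most 4 counts summed over the 6 libraries.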
